A study of Rattus norvegicus with 6 samples.

Results

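The genes described here are 33 genes of glycolysis and of the cellular response to low oxygen, read in rat BRL-3A cells after an siRNA against Hnrnpa2b1. They were chosen by symbol: 23 belong to glycolysis, to glucose and lactate transport or to the gate between pyruvate and mitochondria, and 10 to the control or the targets of hypoxia-inducible factor (HIF). Where several rows of the table carried one symbol, the row with the highest summed count stood for the gene. Of the 33 genes 32 were found this way among 30957 rows, and Egln1 was not analysed here. The lactate exporter Slc16a3 had 0 counts in all 6 libraries, which allows up to 0.197 to 0.224 CPM (counts scaled to library size) per library when 3 counts are taken as the limit, and 31 genes passed the filter on low counts and were tested.

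BRL-3A is an established cell line derived from rat liver. It was grown in a glucose-containing DMEM with 10% serum at 37 °C in humidified air with 5% CO2, at a glucose concentration not given in the sources used here. The labels give 3 libraries named NC and 3 named si-hnrnpa2b1, with siRNA transfected for 48 h. NC is not spelled out, and the labels leave unsaid whether those cells received an siRNA. All 6 libraries carry the same further labels, among them Sprague-Dawley as the strain and a disorder of raised blood fats as the disease state, so that in the labels the siRNA alone separates the groups. Separate cultures are not mentioned in the labels, and p-values then reflect just how these 6 libraries scatter, which can be a technical matter. Libraries held 13374412 to 15224108 counts. Hnrnpa2b1 itself, which encodes an RNA-binding protein of the hnRNP family, fell from 1015 ± 56.0 to 607 ± 48.3 CPM (mean ± SD, n = 3 libraries per group), or -0.74 ± 0.06 on the log2 scale (SE; adjusted p = 2.3e-06 by edgeR).

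Of 10 hepatocyte markers 6 had 0 counts in every library, among them albumin (Alb) and the liver transcription factor Hnf4a, and 9 stayed below 1 CPM in each library. The summed level of that list was 26.9 to 30.1 CPM in NC and 29.3 to 33.7 CPM in si-hnrnpa2b1 libraries, nearly all of it from transferrin. The 8 stellate cell or fibroblast markers summed to 15192 to 15574 CPM in NC and 15093 to 16055 CPM in si-hnrnpa2b1 libraries, with Col1a2 at 0 counts. Among them Acta2 (142 ± 5.86 to 171 ± 6.69 CPM, edgeR adjusted p = 0.0049) and Des (58.4 ± 3.18 to 72.2 ± 4.63 CPM, edgeR adjusted p = 0.014) rose. They were 2 of 7 tested markers of this list, beside 5.30% of all tested genes that changed. Col1a1, which held most of the sum (11781 ± 221 and 11729 ± 476 CPM), did not pass, nor did Col3a1, Pdgfrb, Lum and Vim. Leukocyte markers summed to at most 2.66 CPM. Endothelial markers summed to 44.8 to 48.63 CPM in NC and 48.64 to 52.0 CPM in si-hnrnpa2b1 libraries. Cholangiocyte markers summed to at least 13.5 CPM in each NC library and to 11.8 to 12.5 CPM in si-hnrnpa2b1 libraries. The sums of both the endothelial and the cholangiocyte list did not overlap, by a narrow margin for the endothelial one. No single marker of either list passed by edgeR. The part of these markers in the results below was not tested.

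Glycolysis splits glucose into pyruvate in the cytosol and yields ATP without oxygen. Hexokinase traps the sugar, phosphofructokinase commits it, pyruvate kinase closes the path, and lactate dehydrogenase turns pyruvate into lactate so that the path can go on. When oxygen is short, the prolyl hydroxylases of the Egln family stop marking the alpha subunits of HIF for destruction. HIF then pairs with Arnt and induces genes that carry its site, many glycolytic enzymes among them, together with genes of vessel growth, mitochondrial removal and its own hydroxylases. Cultured and growing cells use mainly the widely expressed isozymes of these steps rather than those of the differentiated liver.

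With each gene read from its row of highest count, no glycolytic gene and no HIF gene passed the test across all genes. A second row named Pkm did pass and is described with pyruvate kinase. Below, rose and fell are used where edgeR's quasi-likelihood F-test gave a p under 0.05 after Benjamini-Hochberg adjustment over 12261 genes. By that rule 650 genes (5.30%) changed in the whole table, 2.36% of tested genes upward and 2.94% downward, and 0 of 22 tested glycolytic genes and 0 of 9 tested HIF genes did. DESeq2 and limma on FPKM also called 0 in both groups. At an unadjusted p below 0.05 there were 4 glycolytic and 3 HIF genes, against 18.3% of all tested genes. The median log2 fold change of si-hnrnpa2b1 over NC was 0.02 over the tested glycolytic genes and -0.08 over the tested HIF genes, beside -0.0015 over all tested genes. A p that misses the threshold does not show that levels were equal, so the intervals matter: the 95% interval of the log2 fold change lay within 0.3 on either side of 0 for 18 of the 22 glycolytic and 7 of the 9 HIF genes, and for 5676 of all 12261 genes.

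**Figure D1:**
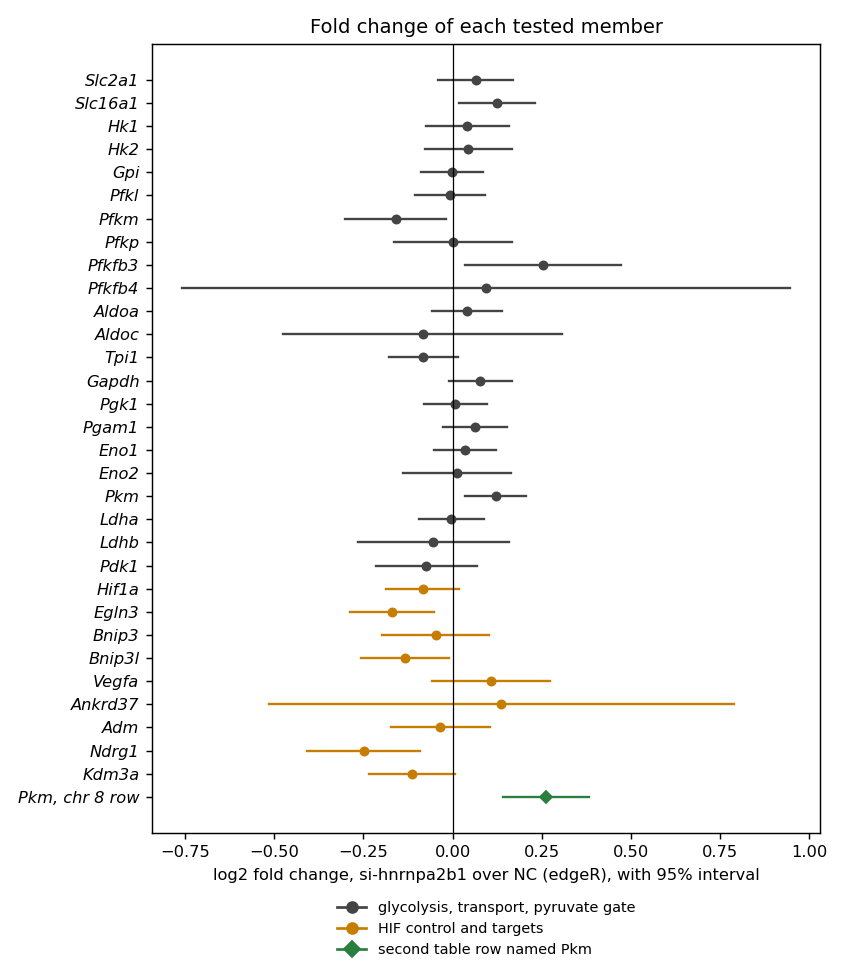
Log2 fold change of si-hnrnpa2b1 over NC for the 31 tested genes, in pathway order from top to bottom, as points with 95% intervals from the edgeR fit (3 libraries per group). Glycolytic genes are grey, HIF control and target genes orange, and the green diamond is a second table row named Pkm, on chromosome 8, at 0.26.

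The groups of libraries did not overlap for 8 of the 31 tested genes, beside 23.4% of all tested genes. In 3 of them the si-hnrnpa2b1 values were the higher ones (Slc16a1, Gapdh and Pkm) and in 5 the lower ones (Pfkm, Egln3, Bnip3l, Ndrg1 and Kdm3a). The 3 higher ones are 13.6% of the tested glycolytic genes, beside 11.5% of all tested genes. Of the 5 lower ones 4 belong to HIF control or HIF targets, 44.4% of the 9 tested, beside 11.9% of all tested genes. The 38 other tested HIF pathway genes, described further below, did not share this lean. Among them 13.2% did not overlap with si-hnrnpa2b1 lower and 21.1% with si-hnrnpa2b1 higher. The differences of the 8 genes were small, with fold changes between -0.25 and 0.12 on the log2 scale.

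HIF binds the core ACGTG or GCGTG, and the promoters of these genes show where such letters lie. RefSeq (build GRCr8) gave at least 1 window from 250 bases before to 50 after a gene's start for 29 of the 32 genes. Both strands were searched, and a palindromic CACGTG counts as 2 overlapping matches. Of the 29 genes 21 held a match in some window. Of their 35 windows 62.9% did, beside 41.6% of all 33469 rat windows. Both cores contain the letters CG, and the windows were not matched for base composition, so these shares do not show an excess of HIF sites. A group of 6 genes, each with 1 window, held 4 or more matches. That is 6 of the 35 windows, beside 3.46% of all rat windows. Shown here are the windows of Ldha and Ankrd37, which held the most, and of the HIF target Bnip3 and the lactate transporter Slc16a1, each 5′ to 3′ with the matches in capitals. Ldha lies at chr1:106507842-106508141 on the plus strand, Ankrd37 at chr16:53001257-53001556 on the plus strand, Bnip3 at chr1:203154913-203155212 on the minus strand and Slc16a1 at chr2:194812410-194812709 on the plus strand.
Ldha: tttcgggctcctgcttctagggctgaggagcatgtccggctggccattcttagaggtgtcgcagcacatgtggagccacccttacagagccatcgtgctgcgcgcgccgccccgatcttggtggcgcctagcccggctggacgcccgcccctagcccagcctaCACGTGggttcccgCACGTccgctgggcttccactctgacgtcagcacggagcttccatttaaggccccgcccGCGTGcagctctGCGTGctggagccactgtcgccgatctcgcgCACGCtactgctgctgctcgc
Ankrd37: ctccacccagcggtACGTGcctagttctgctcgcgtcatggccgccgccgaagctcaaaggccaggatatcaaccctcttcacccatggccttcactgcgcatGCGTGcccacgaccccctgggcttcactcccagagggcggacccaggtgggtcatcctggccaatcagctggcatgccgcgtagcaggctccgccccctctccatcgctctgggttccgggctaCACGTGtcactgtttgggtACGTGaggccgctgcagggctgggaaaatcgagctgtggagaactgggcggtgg
Bnip3: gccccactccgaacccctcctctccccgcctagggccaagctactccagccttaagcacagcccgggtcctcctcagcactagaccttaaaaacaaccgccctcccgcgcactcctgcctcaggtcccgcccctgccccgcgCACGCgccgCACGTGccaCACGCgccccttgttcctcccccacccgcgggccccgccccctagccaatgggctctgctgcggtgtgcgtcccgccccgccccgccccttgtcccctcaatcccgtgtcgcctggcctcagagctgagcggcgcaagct
Slc16a1: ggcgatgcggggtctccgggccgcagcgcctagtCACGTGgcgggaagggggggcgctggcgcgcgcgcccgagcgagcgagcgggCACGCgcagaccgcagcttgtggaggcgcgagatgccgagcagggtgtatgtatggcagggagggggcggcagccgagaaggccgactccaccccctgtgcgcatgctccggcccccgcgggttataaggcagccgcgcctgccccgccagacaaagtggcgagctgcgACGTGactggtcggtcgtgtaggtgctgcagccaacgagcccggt
The Ldha window held 3 matches to ACGTG and 3 to GCGTG, that of Ankrd37 4 and 1, that of Bnip3 2 and 2, and that of Slc16a1 3 and 1. The windows of 8 genes (Vegfa, Egln3, Adm, Hk2, Pfkfb4, Slc16a3, Tpi1 and Pkm) held none, which says only that these letters are not in these 300 bases. A match is a description of the letters and not a binding site.

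The path started with the transporters. Slc2a1, the widely expressed glucose carrier GLUT1 (chromosome 5, 138154673 to 138182897 of Rnor_6.0), gave 133, 144 and 136 CPM in NC and 143, 147 and 142 CPM in si-hnrnpa2b1 libraries. The ranges overlapped, and the log2 fold change was 0.06 ± 0.05 (edgeR adjusted p = 0.54). Slc16a1, the monocarboxylate carrier MCT1 that moves lactate and pyruvate across the plasma membrane, gave 126, 123 and 118 CPM in NC and 133, 137 and 129.8 CPM in si-hnrnpa2b1 libraries. Every si-hnrnpa2b1 library lay above every NC library, yet the gene did not pass (edgeR log2 0.12 ± 0.05, adjusted p = 0.19). Its relative Slc16a3, the lactate exporter MCT4 that HIF induces in many cells, was the gene with 0 counts. Slc16a1 was thus the only listed lactate carrier with counts. Col1a2 likewise had 0 counts, beside Col1a1 at 11781 CPM in NC. Whether a row at 0 reflects absent RNA or the assignment of reads to rows was not tested.

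The hexokinases and phosphofructokinases, which control entry into the path, differed by little. Hk1 gave 98.4, 103 and 99.9 CPM in NC and 109, 98.7 and 102 CPM in si-hnrnpa2b1 libraries, and the HIF-inducible Hk2 gave 187, 214 and 181 CPM and 196, 206 and 197 CPM. The highest Hk2 value was that of NC replicate 2, and the groups overlapped in both genes (log2 0.04 ± 0.05 and 0.04 ± 0.06). Gpi, which turns glucose 6-phosphate into fructose 6-phosphate, had 583 ± 10.8 and 582 ± 12.4 CPM, with a 95% interval of the change from -6.03% to 6.08%. Pfkl, the liver-type phosphofructokinase, had 209 ± 8.47 and 208 ± 4.15 CPM, and the platelet type Pfkp 43.2 ± 3.83 and 43.2 ± 2.79 CPM. The muscle type Pfkm gave 52.0, 55.2 and 56.6 CPM in NC and 47.4, 51.7 and 47.6 CPM in si-hnrnpa2b1 libraries. These values did not overlap, and the log2 fold change of -0.16 ± 0.07 did not pass (edgeR adjusted p = 0.21).

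Pfkfb3 and Pfkfb4 make and break fructose 2,6-bisphosphate, the strongest activator of phosphofructokinase, and both are HIF targets in many cells. Pfkfb3 (chromosome 17, 70684134 to 70713726) gave 42.6, 42.4 and 48.3 CPM in NC and 44.5, 51.2 and 63.4 CPM in si-hnrnpa2b1 libraries. The highest NC library lay above the lowest si-hnrnpa2b1 library, and the 3 si-hnrnpa2b1 libraries spread more widely than those of NC. Its log2 fold change of 0.25 ± 0.10 was the highest of the 31 tested genes and did not pass (edgeR adjusted p = 0.19); its 95% interval ran from 2.39% to 38.8% higher. The value rested on single libraries, at 0.11 without si-hnrnpa2b1 replicate 3 (adjusted p = 0.65 by edgeR) and 0.36 without si-hnrnpa2b1 replicate 1 (adjusted p = 0.051 by edgeR). Pfkfb4 was barely detected, with 66 counts over the 6 libraries and an interval from -0.76 to 0.95, so no difference below about that size could be seen at this depth. A second row named Pfkfb4 had 0 counts.

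The most abundant members lay mainly in the steps from aldolase onward. In FPKM, which divides by transcript length and lets genes be compared, Aldoa stood at 737 ± 40.5 in NC, Pgam1 at 559.9 ± 24.9, the Pkm row at 518 ± 2.08, Gapdh at 486 ± 4.31, Ldha at 389 ± 16.7, Pgk1 at 296 ± 8.15, Gpi at 289.6 ± 7.80, Eno1 at 269.7 ± 8.12 and Tpi1 at 154 ± 3.86. Each of these 9 levels lay above those of at least 96.8% of tested genes. Neighbours in that order differed beyond their SD except Pgk1 and Gpi. The levels of Pkm, Gapdh, Eno1 and Tpi1 leave out reads assigned to look-alike rows, given below, so their places in the order are uncertain. All 23 genes together took 0.709% to 0.740% of the counts of NC libraries and 0.735% to 0.753% of those of si-hnrnpa2b1 libraries.

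**Figure D2:**
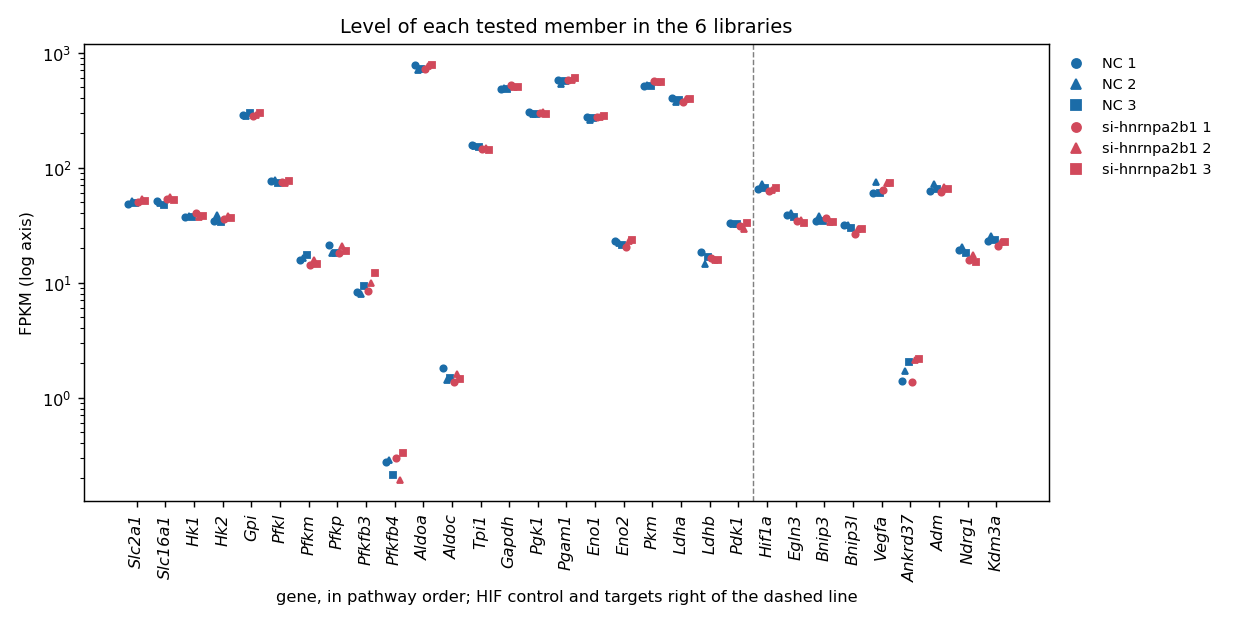
FPKM on a log axis for the 31 tested genes in each of the 6 libraries (blue, NC; red, si-hnrnpa2b1; symbols mark the replicate number), with HIF control and target genes right of the dashed line. Levels span from 0.258 FPKM for Pfkfb4 to 737 FPKM for Aldoa in NC, and the 2 colours lie side by side in nearly all genes.

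Among Aldoa, Aldoc, Tpi1 and Gapdh the groups overlapped in all except Gapdh. Aldoa, which cleaves fructose 1,6-bisphosphate, gave 1249.7, 1146 and 1161 CPM in NC and 1181, 1219 and 1260.4 CPM in si-hnrnpa2b1 libraries (log2 0.04 ± 0.05). Its brain-type relative Aldoc stayed at 4.47 ± 0.592 and 4.22 ± 0.291 CPM. Tpi1, which interconverts the triose phosphates, had 223 ± 6.71 and 210.4 ± 5.90 CPM (edgeR log2 -0.08 ± 0.05, adjusted p = 0.37), and -0.039 in log2 with its look-alike row summed in (adjusted p = 0.70 by edgeR). Gapdh, the dehydrogenase often used as a reference gene, gave 484, 496 and 479 CPM in NC and 529.6, 504 and 507 CPM in si-hnrnpa2b1 libraries. All 3 of the latter were higher, by 0.08 ± 0.04 on the log2 scale, and the gene did not pass (edgeR adjusted p = 0.35).

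Pgk1, the first ATP-yielding kinase of the path, had 539.5 ± 12.0 and 542 ± 9.87 CPM, with a 95% interval of the change from -5.39% to 6.84%. Pgam1, the phosphoglycerate mutase, had 974 ± 33.1 and 1018 ± 20.5 CPM (log2 0.06 ± 0.04). The enolases Eno1 and Eno2 had log2 fold changes of 0.04 ± 0.04 and 0.01 ± 0.07. At the end of the path, Ldha, which makes lactate, gave 643, 601 and 620.0 CPM in NC and 603, 629 and 627 CPM in si-hnrnpa2b1 libraries, with overlapping groups and a 95% interval of the change from -6.40% to 6.22%. Ldhb, the heart-type subunit, had 22.2 ± 2.46 and 21.4 ± 0.619 CPM. Pdk1, the kinase that shuts off pyruvate dehydrogenase and is induced by HIF, had 51.4 ± 0.746 and 48.8 ± 2.93 CPM (edgeR log2 -0.07 ± 0.07, adjusted p = 0.62).

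Pyruvate kinase was the one step at which the call depended on the table row. Pkm makes pyruvate and ATP from phosphoenolpyruvate; in human cells hnRNP A1, A2B1 and PTBP1 are known to choose between its PKM1 and PKM2 transcripts, which counts per gene cannot separate. A pair of rows bear this symbol. The one with the higher count, 97349 in all, lies at chromosome 20, 18058245 to 18060661 (ENSRNOG00000047276), a span of 2417 bases for a model of 2074 bases. The other, with 54442 counts, lies at chromosome 8, 64481172 to 64502722 (ENSRNOG00000011329), a span of 21551 bases for a model of 2697 bases, and RefSeq's promoter table also puts Pkm on chromosome 8. Whether the chromosome 20 row is a processed copy of the gene was not tested, so the level, rank and fold change given for it may not be those of the gene itself.

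The chromosome 20 row gave 1063, 1092 and 1066 CPM in NC and 1190.2, 1158 and 1155 CPM in si-hnrnpa2b1 libraries. The groups did not overlap, and the log2 fold change of 0.12 ± 0.04 did not pass (edgeR adjusted p = 0.11). The chromosome 8 row gave 582, 515 and 608 CPM in NC and 717, 674 and 654 CPM in si-hnrnpa2b1 libraries. All 3 si-hnrnpa2b1 values were higher, NC replicate 2 being the lowest of the 6, and the row rose by 0.26 ± 0.06 in log2 (adjusted p = 0.013 by edgeR). With the counts of both rows summed, Pkm rose by 0.17 (edgeR adjusted p = 0.028). More RNA per cell and more cells of a kind that holds it cannot be told apart in bulk libraries.

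The chromosome 8 row passed under 12 of 16 alternatives, with log2 fold changes from 0.20 to 0.31. It did not pass without si-hnrnpa2b1 replicate 1 (edgeR adjusted p = 0.058) or by limma on FPKM (adjusted p = 0.089 to 0.19). The row on chromosome 20 took 64.6%, 68.0% and 63.7% of the counts of both in the NC libraries, against 62.4%, 63.2% and 63.9% after the siRNA, so the groups overlapped in that split. The sources used here do not say how reads that fit both rows were counted.

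Look-alike rows also held many reads of other steps. Rows described as Gapdh copies, 8 in number, held 71765 counts together against 43409 for Gapdh itself, which thus had 37.7% of its family. The row LOC100911515, described as triosephosphate isomerase-like, held 35086 counts against 18765 for Tpi1, and 2 rows named LOC685431 held 16388 against 44784 for Eno1. The models of the 3 larger Gapdh copies were as long as their spans, which were 1185, 1295 and 1002 bases. Among these rows none passed by edgeR. The lowest edgeR adjusted p was 0.13, that of RGD1565368 (284 ± 1.79 to 307 ± 1.81 CPM, higher in 3 of 3 libraries). With look-alike rows summed into their gene, Pkm was the one glycolytic gene that passed.

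**Figure D3:**
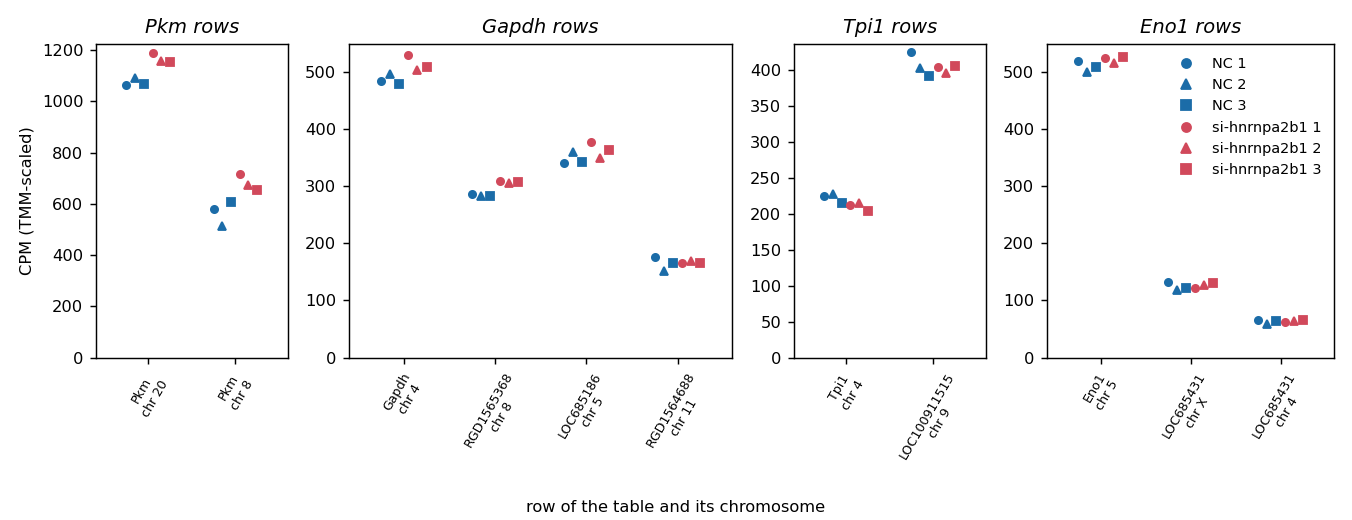
CPM in each of the 6 libraries for the table rows of Pkm, Gapdh, Tpi1 and Eno1 and for their larger look-alike rows (blue, NC; red, si-hnrnpa2b1). Red lies above blue in both Pkm rows, at 682 against 568 CPM for the row on chromosome 8, and the Tpi1-like row on chromosome 9 stands above Tpi1 itself.

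The isozyme make-up of the steps overlapped between the groups in all 7 shares compared. As a share of the summed FPKM of the listed isozymes of its step, Hk1 stood at 51.3 ± 1.76% against 51.1 ± 1.80% (NC first). Hk1 and Hk2 were thus nearly even. Pfkl held 68.0 ± 0.976% and 69.0 ± 1.66% of phosphofructokinase, and Aldoa 99.8% of Aldoa and Aldoc in both groups. Eno1 held 92.4 ± 0.307% and 92.5 ± 0.522% of Eno1 and Eno2, and Ldha 95.9 ± 0.308% and 96.0 ± 0.199% of Ldha and Ldhb. These shares leave out Eno3, which is not among the listed genes (5.06 ± 0.925 FPKM in NC), and the look-alike rows of Eno1. Pfkm took 13.9%, 14.6% and 15.9% of its step in the NC libraries, and 13.1%, 14.2% and 13.2% after the siRNA, with overlap between the groups. An exact two-sided permutation test of 7 shares, which cannot go below p = 0.10 with 3 against 3 libraries, gave p = 0.20 for Pfkm as its lowest value (0.875 after adjustment over the 7).

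**Figure D4:**
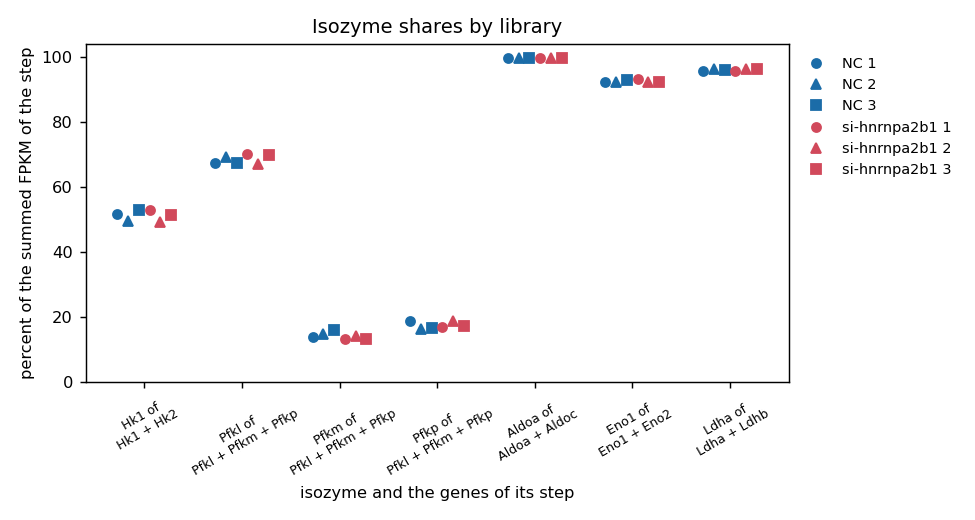
Share of 1 isozyme in the summed FPKM of its step, in percent, for each of the 6 libraries (blue, NC; red, si-hnrnpa2b1). A step here is the sum of its listed isozymes alone. Hk1 lies near 51% and Pfkl near 69%, and Pfkm and Pfkp hold the rest of phosphofructokinase. Aldoa, Eno1 and Ldha hold more than 92% of these sums.

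Of the 9 tested HIF genes 7 had a log2 fold change below 0, and none passed. Below 0 were also 20 of the 38 other tested HIF pathway genes and 6180 of all 12261 tested genes. Some genes counted here as glycolytic are HIF-induced too. Of these, Pfkfb3 (0.25), Pfkfb4 (0.09) and Hk2 (0.04) lay above 0 and Pdk1 (-0.07) below. Hif1a, the oxygen-regulated subunit, is controlled mainly at the protein level, which these data do not show. Its mRNA gave 296, 332 and 302 CPM in NC and 288, 291 and 299 CPM in si-hnrnpa2b1 libraries, with overlap and a log2 change of -0.08 ± 0.05 (adjusted p = 0.39 by edgeR). Egln3, the hydroxylase PHD3 that marks HIF and is itself a HIF target (chromosome 6, 75050329 to 75075795), gave 108, 115 and 105 CPM in NC and 98.8, 99.1 and 93.2 CPM in si-hnrnpa2b1 libraries. All 3 si-hnrnpa2b1 values were lower, and the gene did not pass (edgeR log2 -0.17 ± 0.06, adjusted p = 0.097).

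Ndrg1, a stress-induced protein that rises with low oxygen in many cells (chromosome 7, 107734299 to 107775706), gave 55.6, 59.9 and 51.8 CPM in NC and 45.9, 50.7 and 44.1 CPM in si-hnrnpa2b1 libraries. The groups did not overlap. Its log2 fold change of -0.25 ± 0.07 was the lowest of the 31 tested genes and did not pass (edgeR adjusted p = 0.068). Over the alternatives its adjusted p ran from 0.045, without NC replicate 3, to 0.25, without si-hnrnpa2b1 replicate 3, and was 0.19 without NC replicate 2. The 95% interval of its change ran from -24.6% to -6.07%. Bnip3l, which marks mitochondria for removal, gave 101, 102 and 94.4 CPM in NC and 85.6, 92.7 and 92.9 CPM in si-hnrnpa2b1 libraries (edgeR log2 -0.13 ± 0.06, adjusted p = 0.23). Its close relative Bnip3 had 60.5 ± 4.63 and 58.5 ± 3.24 CPM, with overlap.

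The histone demethylase Kdm3a gave 114, 127 and 115 CPM in NC and 105, 111 and 112 CPM in si-hnrnpa2b1 libraries, all 3 lower (edgeR log2 -0.11 ± 0.06, adjusted p = 0.30). Adm, the vasodilator adrenomedullin, had 92.6 ± 8.11 and 90.3 ± 3.44 CPM. Ankrd37, an ankyrin-repeat protein and a sensitive HIF target, was near the limit of detection at 1.49 ± 0.276 and 1.64 ± 0.389 CPM. Vegfa, the vessel growth factor, gave 218, 276 and 219 CPM in NC and 234, 268 and 267 CPM in si-hnrnpa2b1 libraries, so that NC replicate 2 was the highest of the 6 (edgeR log2 0.11 ± 0.08, adjusted p = 0.51).

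NC replicate 2 was often the highest NC library in the HIF genes. It held that place in 8 of the 9 tested HIF genes, Ankrd37 being the exception, and in 20 of 38 other tested HIF pathway genes, beside 9 of 22 glycolytic genes, where NC replicate 1 led in 10, and 35.7% of all tested genes. Among si-hnrnpa2b1 libraries replicate 2 was likewise the highest in 20 of the 38 other genes, and in 4 of the 9. In NC replicate 2 the 9 HIF genes lay 0.10 above the NC mean at the median on the log2 scale. NC replicate 2 was also the library with the fewest counts, 13374412, and the part of that in the pattern was not tested. The pattern was noticed after the values were seen and was given no test. Without this library the median log2 fold change of the HIF genes was -0.03, with 5 of 9 below 0. Vegfa was then at 0.23 (edgeR adjusted p = 0.027), Ndrg1 at -0.19 and Egln3 at -0.13, and the values of Bnip3 and Adm turned to 0.02 and 0.04. The library was singled out by the values of these same genes, so its removal gives no separate support for a rise of Vegfa. Over all alternatives the log2 fold change of Vegfa ran from 0.05 to 0.23. Its adjusted p (edgeR, DESeq2 or limma) ran from 0.027 to 0.83.

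**Figure D5:**
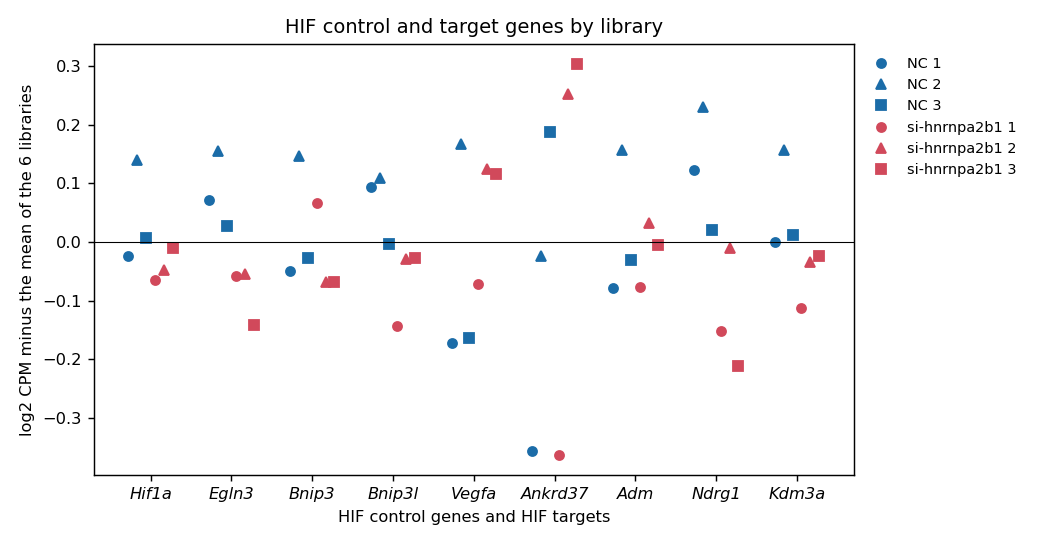
Log2 CPM of each tested HIF gene minus its mean over the 6 libraries (blue, NC; red, si-hnrnpa2b1; triangles, replicate 2). The blue triangle of NC replicate 2 is the highest NC point in 8 of the 9 genes, and all red points lie below all blue points in Egln3, Bnip3l, Ndrg1 and Kdm3a.

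Of 79 tested genes of 5 lists around these pathways 6 passed, 7.59% beside 5.30% of all tested genes. Of 42 other HIF pathway genes 38 were tested, of which 2 rose, 3 fell and 33 did not pass (13.2% called), with a median log2 fold change of -0.01. Stc2, a secreted stanniocalcin that is also a target of the stress factor ATF4, rose from 13.1 ± 0.865 to 25.1 ± 2.25 CPM (edgeR log2 0.93 ± 0.10, adjusted p = 6.6e-05). Loxl2, which cross-links collagen, rose from 233 ± 9.45 to 306 ± 24.7 CPM (edgeR log2 0.39 ± 0.06, adjusted p = 5.6e-04). P4ha2, a collagen prolyl hydroxylase, fell from 372 ± 20.1 to 287 ± 3.48 CPM (edgeR log2 -0.37 ± 0.05, adjusted p = 1.7e-04).

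Epas1, which encodes HIF-2 alpha, gave 93.1, 112 and 97.8 CPM in NC and 83.6, 87.4 and 82.1 CPM in si-hnrnpa2b1 libraries. All 3 si-hnrnpa2b1 values were lower, and it fell by 0.26 in log2 (adjusted p = 0.035 by edgeR). Epas1 no longer passed without NC replicate 2, without any single si-hnrnpa2b1 library or by limma on FPKM, where the adjusted p reached 0.20. The collagen cross-linker Lox, named after its values were seen, fell from 6506 ± 156 to 5837 ± 67.5 CPM (edgeR log2 -0.16 ± 0.04, adjusted p just under the threshold), and the call was lost under 12 of 18 alternatives.

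The neighbouring routes of sugar carbon held 1 call. Pdhx, the binding subunit that holds the pyruvate dehydrogenase complex together, rose from 19.3 ± 0.108 to 24.1 ± 0.593 CPM (edgeR log2 0.32 ± 0.09, adjusted p = 0.048). It did not pass under 13 of 18 alternatives, each left-out library and DESeq2 among them. It was the 1 of 16 tested genes of pyruvate entry and NADH shuttles to pass. Among 7 genes of the pentose phosphate pathway, 13 of gluconeogenesis and glycogen and 8 other glycolytic isozymes and sugar phosphate enzymes, 0 passed by edgeR, DESeq2 or limma, with 2, 3 and 1 below an unadjusted p of 0.05. The lowest adjusted p among them was that of the liver glycogen phosphorylase Pygl, at 62.0 ± 7.04 and 52.8 ± 2.47 CPM (edgeR log2 -0.23 ± 0.08, adjusted p = 0.12). Pygl passed under a single alternative, without NC replicate 3 (log2 -0.32, adjusted p = 0.017 by edgeR). That library held its lowest NC value, 54.1 CPM against 67.5 and 64.5 CPM, so leaving it out raises the NC mean.

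Several genes of sugar handling in the differentiated liver were near or at the limit of detection. The glucose carrier Slc2a2, the fructose bisphosphatase Fbp1 and the gluconeogenic Pck1 had 0 counts in all 6 libraries, and the liver pyruvate kinase Pklr had 1 count. A row named G6pc gave 190.4 ± 3.31 and 206 ± 10.5 CPM while a second row of that name held 8 counts.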

How the data were processed

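One table gave, for each rat gene and each of 6 libraries, raw counts beside FPKM. HISAT2 2.0.4 and StringTie 1.3.0 appear with edgeR and the build Rnor_6.0 in the submitters' processing notes, which state no role or order. The deposited counts are whole numbers that were not normalized. FPKM as deposited by the authors equals the count over a length per gene and the column total, to within 0.0617%, and this gave each model's length. The sources used here do not name the annotation release, the counting program or the handling of reads that fit several genes. The number of per-sample columns left unused was 0.

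The edgeR test (edgeR 4.0.16, R 4.3.3) took all 6 libraries without covariates: filterByExpr defaults (minimum count 10, minimum total 15), TMM scaling (factors 0.989 to 1.01), and the two-sided quasi-likelihood F-test with Benjamini-Hochberg adjustment. CPM values are TMM-scaled. Intervals are 95% intervals of the fit, and limits for a count of 0 cover counting error only. None of the 32 genes overlaps another model holding more than 0.1 times its counts. Alternatives used DESeq2 1.42.0, limma 3.58.1 on log2(FPKM + 1) or log2(FPKM + 0.1), other scalings and filters, left-out libraries, a replicate block and summed rows. Summing look-alike rows was chosen after the table was seen. Shares were compared with an exact permutation test (SciPy 1.17.1).

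All 33 genes are accounted for. Of each other pathway list, up to 4 tested genes with the smallest adjusted p may be named. Lox, Eno3 and the genes at 0 or 1 counts were named after their values were seen. The members and lists were chosen with earlier results of these data known. Some genes of the other lists are not reported here.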

Additional observations from a re-analysis of the deposited data

How the results depend on the processing

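The 31 tested genes gave 555 values under 18 alternatives, of which 524 kept direction and side of the threshold, 4 newly passed (Pkm with rows of a symbol summed, 0.17, and with look-alike rows summed, 0.17; Vegfa without NC replicate 2; Ndrg1 without NC replicate 3) and 27 turned sign, in 12 genes whose own log2 fold changes were at most 0.0946 in size. The glycolytic count was 0, and 1 with either kind of summed rows; the HIF count was 0, and 0 to 1 with 1 library left out, being 1 without NC replicate 2 or NC replicate 3. All genes called were 650, and 308, 293 and 119 by limma on log2(FPKM + 1), log2(FPKM + 0.1) and log2(FPKM + 1) with no filter, and 379 to 592 with 1 library left out. Of other pathway genes 6 were called, 3, 3 and 2 by those limma settings, and 3 to 5 with 1 library left out. Sign turns outside left-out libraries were those of Gpi (0.0022) and Ldha (0.00027) with no low-count filter, and of Pfkp with total counts alone (-0.0026) and by limma (-0.00055, -0.00050 and -0.00055).

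With 1 library left out, log2 fold changes ranged across 0 for Hk2 (-0.0038 to 0.12), Gpi (-0.020 to 0.013), Pfkl (-0.038 to 0.021), Pfkp (-0.051 to 0.077), Pfkfb4 (-0.061 to 0.30), Aldoc (-0.14 to 0.031), Pgk1 (-0.0056 to 0.026), Eno2 (-0.024 to 0.073), Ldha (-0.027 to 0.021), Ldhb (-0.13 to 0.024), Bnip3 (-0.094 to 0.016) and Adm (-0.081 to 0.038). The share differences ranged, in percentage points, from -1.09 to 0.798 for Hk1, -0.254 to 1.10 for Pfkp, -0.193 to 0.284 for Eno1 and -0.0187 to 0.285 for Ldha.

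Whether the replicate numbers shared by the groups pair the samples could not be settled with 3 libraries per group. Same-numbered libraries correlated at 0.0571, -0.0039 and 0.0589 in their deviations from the group means, and libraries of unlike number at -0.0926 to 0.0411. NC replicate 2 correlated best with si-hnrnpa2b1 replicate 1 (0.0332). With the replicate block 481 genes passed, 0 glycolytic and 0 HIF genes among them. Depth limits Pfkfb4, Aldoc and Ankrd37, which had 66, 377 and 136 counts in all. The cause of these changes was not tested.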
